A study of Mus musculus with 10 samples.

Results

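The sebaceous gland lipid genes are 10 genes chosen by symbol, *Scd1*, *Scd3*, *Fads2*, *Elovl3*, *Far2*, *Awat1*, *Awat2*, *Soat1*, *Mgst1* and *Mc5r*, out of 24452 named genes in a table of RNA-Seq counts from mouse skin. All 10 were in the table and all 10 passed the filter on low counts. Full-thickness back skin that had been treated but held no tumor was collected from 5 WT mice and from 5 *Zfp36*ΔARE knockin mice (KI below), all C57BL/6, and each library was 1 replicate of its genotype. WT and KI mice received the same treatment, a single application of 400 nmol of the mutagen 7,12-dimethylbenz[a]anthracene (DMBA) to shaved skin at 7 weeks of age, then 10 nmol of the phorbol ester 12-O-tetradecanoylphorbol-13-acetate (TPA) in repeated applications over 20 weeks, and littermates served as controls. KI mice lack an AU-rich stretch in the 3′-untranslated region (3′-UTR) of the endogenous *Zfp36* gene, which encodes tristetraprolin, a protein that binds AU-rich elements of mRNAs and speeds their decay. The deletion is in the germline, so any cell type of the skin could carry its effect. The comparison addresses how the sebaceous lipid program stands in treated skin that makes more of this mRNA. The paper places the sampled skin next to papillomas and reports fewer and later tumors in KI mice than in controls. Tumor burden thus differed along with genotype, and its part was not tested. Untreated skin was not analysed here.

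Sebaceous glands are holocrine appendages of the hair follicle. Their cells, the sebocytes, fill with lipid droplets as they mature and burst to release sebum, which in mice is rich in wax esters, sterol esters and triglycerides. Long saturated fatty acids are desaturated, elongated and reduced to fatty alcohols, and acyltransferases then join alcohol and fatty acid. Several of these enzymes also act in other cells of full-thickness skin, *Scd1* in adipocytes for example, and in a bulk sample fewer cells of a type and less RNA per cell cannot be told apart.

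The libraries held 21638400 to 32583217 counts in WT skin and 19595035 to 36419573 in KI skin. *Zfp36* had a normalized count, meaning a count scaled by edgeR's TMM factors to the mean library size, of 2152 ± 277 in WT and 5427 ± 766 in KI skin (SD, n = 5 each), and the groups did not overlap. *Xist* had 14829 to 28087 counts in the 5 WT libraries and KI replicate 1 but 4 to 15 in KI replicates 2 to 5, which were the libraries with 3349 to 4262 counts of Y-linked genes (at most 1 elsewhere). Marks of sex and genotype were thus partly confounded, with KI replicate 1 the only library that separates them. A hair shaft score, the mean log2(CPM + 1) of 10 hair keratin genes, was 2.44 to 8.14 in WT and 8.89 to 10.3 in KI skin, and was lowest in WT replicates 1 and 3. The 5 replicates of a genotype are numbered libraries, and p-values refer to the spread between them.

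The promoters of *Far2* and *Awat1* are shown because these wax ester genes were both lower in KI skin and followed a similar order among libraries. The sequences are RefSeq's, on GRCm38.p6, from 250 bases before to 50 bases from the start site, on the strand of the gene. *Far2* covers chr6:148047166-148047465 and *Awat1* covers chrX:100571997-100572296, both on the plus strand, and capitals mark the motif match in *Awat1*.
Far2: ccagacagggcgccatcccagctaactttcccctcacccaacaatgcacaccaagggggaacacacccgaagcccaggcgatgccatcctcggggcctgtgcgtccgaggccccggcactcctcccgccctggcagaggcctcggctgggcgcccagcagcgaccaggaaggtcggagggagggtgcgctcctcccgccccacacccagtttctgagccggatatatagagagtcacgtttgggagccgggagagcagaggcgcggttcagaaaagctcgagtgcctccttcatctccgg
Awat1: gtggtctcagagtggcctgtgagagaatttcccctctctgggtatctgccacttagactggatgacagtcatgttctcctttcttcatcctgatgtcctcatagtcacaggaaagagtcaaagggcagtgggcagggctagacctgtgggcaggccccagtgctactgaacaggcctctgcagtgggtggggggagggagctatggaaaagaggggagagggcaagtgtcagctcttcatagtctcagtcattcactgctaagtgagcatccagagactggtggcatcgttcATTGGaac

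The table of promoters held 7 of the 10 genes with 9 start sites in all. Both strands were searched for TATAAA (the TATA box), for CCAAT (the CCAAT box), for AGGTCA of nuclear receptor elements, for CACGTG (the E-box) and for TCACCCCAC of sterol response elements. None of these strings contains another. *Awat1* held CCAAT on the minus strand, 43 bases into the transcript. The *Far2* window held none of these 5 strings. CCAAT was in 4 of the 9 promoters (*Awat1*, both of *Awat2*, *Soat1*). It was in 37.4% of all 32851 promoters in the table and in 37% of the 14909 promoters of tested genes. TATAAA (13.6% of all and 8.47% of tested), AGGTCA (16.3% and 13%), CACGTG (7.15% and 9.28%) and TCACCCCAC (0.551% and 0.644%) were in 0 of the 9. A match is a description of letters and shows no binding.

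The protein that *Zfp36* encodes binds AU-rich sequence, so ATTTA pentamers were located in the 3′-UTR of 1 annotated transcript per gene (GENCODE vM21, GRCm38). Of the 10 genes, 7 held at least 1 pentamer, beside 64.9% of the 14241 tested genes with an annotated 3′-UTR. None of them held the nonamer TTATTTATT, which 7% of those genes held. *Soat1* had 8 pentamers in 6534 bases, *Mc5r* 6 in 2756, *Scd1* 5 in 3464, *Far2* 4 in 1641 and *Elovl3* 3 in 892. *Scd3* and *Mgst1* had 1 each, and *Awat1*, *Awat2* and *Fads2* had 0.

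Windows of 25 bases around the pentamer, in capitals, are shown for the 3 genes that were lower in KI skin and held one (*Scd1*, *Far2*, *Mgst1*), on the strand of the gene. Those of *Scd1*, on the minus strand, lie at chr19:44397860-44397884, chr19:44397801-44397825, chr19:44397727-44397751, chr19:44395590-44395614 and chr19:44395440-44395464. Those of *Far2*, on the plus strand, lie at chr6:148175461-148175485, chr6:148175549-148175573, chr6:148175574-148175598 and chr6:148176751-148176775, and that of *Mgst1*, also on the plus strand, at chr6:138156552-138156576.
Scd1 site 1: tctggcagagATTTAatattctgtt
Scd1 site 2: ttaatgatgcATTTAacctattccg
Scd1 site 3: taaatattttATTTAgctaggatta
Scd1 site 4: tagatgcctgATTTAtaagatgaac
Scd1 site 5: tcaaagaaggATTTAtaacagtttc
Far2 site 1: aactgcatacATTTAcagaaacgta
Far2 site 2: cttttcctttATTTAgctacttccc
Far2 site 3: gacaaaactaATTTAaactcactaa
Far2 site 4: agttctaaagATTTActaccttttg
Mgst1 site: tgggttagaaATTTAatataatcag

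Among the 10 genes, *Scd1*, *Far2*, *Awat1* and *Mgst1* fell in KI skin and none rose. Calls here are genes whose p from the quasi-likelihood test of edgeR, adjusted by Benjamini-Hochberg over 15543 genes, was under 0.05. Over all genes tested, the same test called 19.1% lower and 15.3% higher. Unadjusted, the count under 0.05 was 4 lower and 1 higher (*Fads2*), beside 24.6% lower and 22.5% higher over all genes. DESeq2 called 1 higher and limma-voom 0. Only *Scd1* was also past a fold of 2, which 6.64% of all genes were in the lower direction. The median log2 fold change (KI against WT) of the 10 genes was -0.30, and that of all genes tested 0.0076. Groups did not overlap for 3 genes (*Scd1*, *Far2*, *Mgst1*), all lower in KI skin. Over the 15543 genes tested, 1842 did not overlap in that direction, and 23.1% in either direction.

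**Figure D1:**
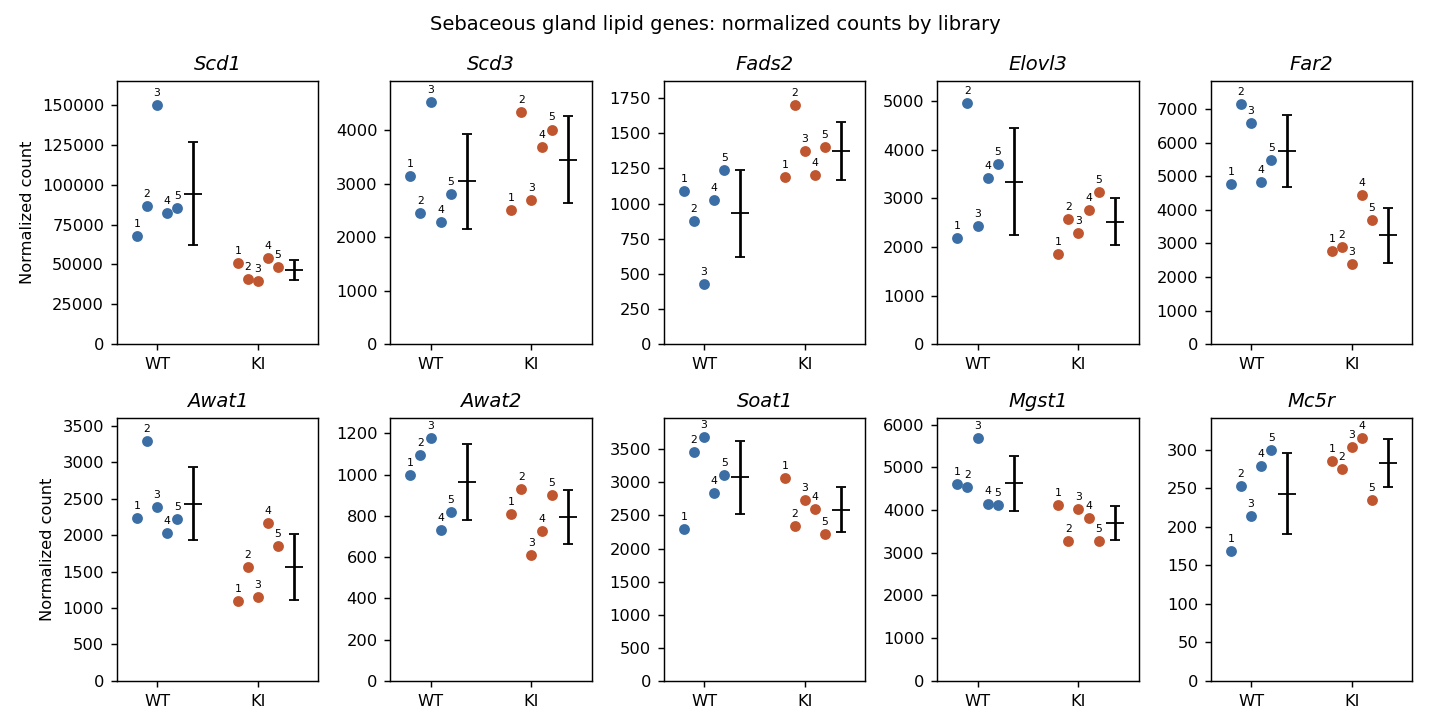
Normalized count (vertical axis, from 0) of each gene in the 5 WT and 5 KI libraries. Points carry the replicate number and the bar beside them is the mean ± SD. All KI points of *Scd1*, *Far2* and *Mgst1* lie below all WT points, and the 2 sets of points intermix in the other 7 genes.

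*Scd1* (chr19:44394455-44407879, minus strand, GRCm38) encodes stearoyl-CoA desaturase 1, which turns saturated into monounsaturated fatty acids. It had by far the highest level of the 10 genes. Its normalized counts in WT replicates 1 to 5 were 67574, 86798, 150081, 82119 and 85485, and in KI replicates 1 to 5 they were 50840, 41070, 39384, 54046 and 48374. Every KI library lay below every WT library, and WT replicate 3 stood far above the other WT libraries. The means were 94411 ± 32047 in WT and 46743 ± 6307 in KI skin (SD, n = 5 each), 2.02-fold lower in KI (log2 fold change -1.01, SE 0.20, 95% interval -1.46 to -0.56, edgeR adjusted p = 0.0081). An exact two-sided permutation test gave p = 0.00794, the smallest that 5 against 5 libraries allow. Any gene whose groups do not overlap reaches this value, so it adds nothing to that separation. Without WT replicate 3 the log2 fold change was -0.78 (edgeR adjusted p = 0.0053), no longer past a fold of 2, which was also missed without KI replicate 2 (-0.97) or KI replicate 3 (-0.96).

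*Scd3* (chr19:44203269-44244016, plus strand) encodes another stearoyl-CoA desaturase, and lies 150 kb from *Scd1*. Its normalized counts in WT replicates 1 to 5 were 3151, 2456, 4522, 2289 and 2815, and in KI they were 2505, 4339, 2690, 3685 and 4013. The groups overlapped throughout, with WT replicate 3 highest and WT replicate 4 lowest. The log2 fold change was 0.18 (SE 0.21, 95% interval -0.29 to 0.64, edgeR adjusted p = 0.52).

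The share of *Scd3* in the summed counts of both desaturases was higher in KI skin. It was 4.45, 2.75, 2.92, 2.71 and 3.19% in WT replicates 1 to 5 and 4.70, 9.56, 6.39, 6.38 and 7.66% in KI replicates 1 to 5. Every KI share was above every WT share, but KI replicate 1 was only just above WT replicate 1. Their exact Clopper-Pearson 95% intervals, 4.54 to 4.85% and 4.31 to 4.60%, overlapped and cover counting error only. KI replicate 1 was the only KI library with marks of sex like those of the WT libraries. KI replicates 2 to 5, which differed in these marks, had 6.38 to 9.56%, and the part of sex was not tested. The mean share was 3.21 ± 0.723% in WT and 6.94 ± 1.80% in KI skin (SD, n = 5 each). The summed normalized count of the pair was 97458 ± 32794 in WT and 50189 ± 6332 in KI skin, 1.94-fold lower. Reads that match both genes could not be assigned with certainty, so the level of *Scd3*, the smaller of the pair, is the more uncertain value.

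**Figure D2:**
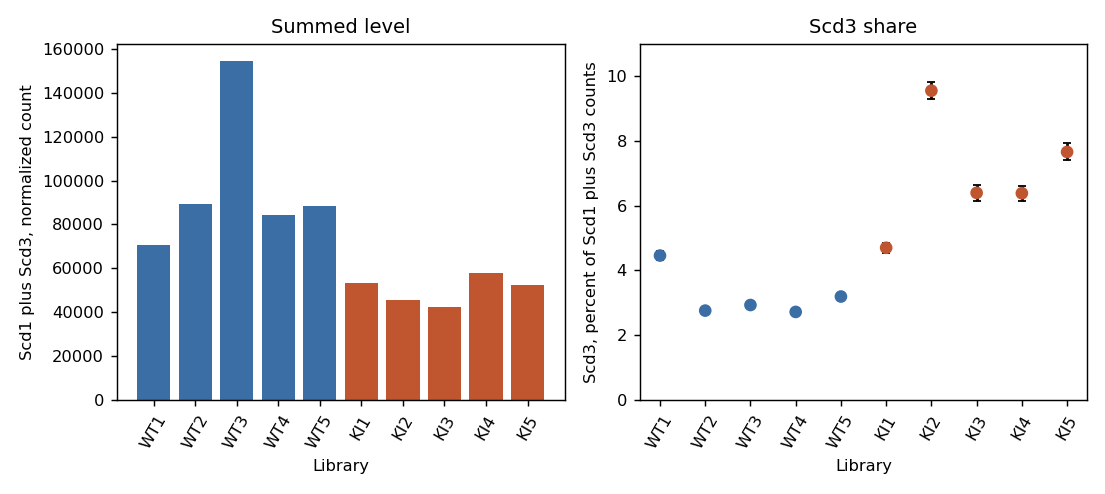
Left, summed normalized count of *Scd1* and *Scd3* in each library (bars from 0). Right, *Scd3* as a percent of the counts of both genes, with exact 95% Clopper-Pearson intervals for counting error. WT shares lie between 2.71 and 4.45% and KI shares between 4.70 and 9.56%.

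*Fads2* (chr19:10062765-10101746, minus strand) encodes the delta-6 desaturase, which acts on polyunsaturated fatty acids and, in sebocytes, also on palmitate. Normalized counts were 1090, 875, 431, 1027 and 1239 in WT replicates 1 to 5 and 1186, 1702, 1376, 1202 and 1402 in KI replicates 1 to 5. The KI libraries were mostly higher, but WT replicate 5 lay above KI replicates 1 and 4, and WT replicate 3, the highest for *Scd1*, was the lowest here. The means were 932 ± 309 and 1373 ± 208 (SD, n = 5 each), and the log2 fold change of 0.56 (SE 0.23, 95% interval 0.04 to 1.08) did not pass in edgeR (adjusted p = 0.086) while DESeq2 gave an adjusted p of 0.0496. Without WT replicate 3 the log2 fold change was 0.38.

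*Elovl3* (chr19:46131897-46135694, plus strand) encodes an elongase of saturated and monounsaturated very long chain fatty acids. Its normalized counts were 2188, 4947, 2438, 3407 and 3700 in WT replicates 1 to 5, and 1849, 2575, 2279, 2750 and 3120 in KI replicates 1 to 5. The WT libraries spanned a wide range and the KI libraries fell within its lower part or, for KI replicate 1, below it. The log2 fold change was -0.41 (SE 0.22, 95% interval -0.89 to 0.08, edgeR adjusted p = 0.16). It was -0.22 without WT replicate 2. Without WT replicates 1 and 3, the libraries with the lowest hair shaft scores, it was -0.68 (edgeR adjusted p = 0.035).

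*Far2* (chr6:148047259-148182758, plus strand) encodes a fatty acyl-CoA reductase, which makes the fatty alcohols of wax esters. Normalized counts were 4764, 7148, 6573, 4813 and 5476 in WT replicates 1 to 5 and 2776, 2903, 2393, 4443 and 3700 in KI replicates 1 to 5. The lowest WT library lay just above the highest KI library, replicate 4. *Far2* was 1.77-fold lower in KI skin, at 3243 ± 823 against 5755 ± 1067 (SD, n = 5 each, log2 fold change -0.83, SE 0.18, 95% interval -1.22 to -0.43, edgeR adjusted p = 0.0098). The exact permutation p was 0.00794, which the separation of the groups fixes. Without any 1 library the log2 fold change stayed between -0.97 and -0.74 and the call was kept.

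*Awat1* (chrX:100572251-100578205, plus strand) and *Awat2* (chrX:100402221-100442717, minus strand) encode acyl-CoA wax alcohol acyltransferases, which join a fatty alcohol to a fatty acid, and lie 130 kb apart. *Awat1* had normalized counts of 2231, 3298, 2384, 2031 and 2216 in WT replicates 1 to 5 and of 1103, 1570, 1153, 2164 and 1847 in KI replicates 1 to 5. The groups overlapped by 1 pair of libraries, since KI replicate 4 was above WT replicate 4, and WT replicate 2 stood apart at the top. *Awat1* was 1.55-fold lower in KI skin (2432 ± 500 against 1568 ± 453, SD, n = 5 each, log2 fold change -0.64, SE 0.20, 95% interval -1.08 to -0.19, edgeR adjusted p = 0.034).

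The call of *Awat1* rested on single libraries. Its edgeR adjusted p rose past the threshold without WT replicate 1, 2 or 3 or KI replicate 1, 2 or 3, with a highest value of 0.072, while the log2 fold change stayed between -0.78 and -0.50. *Far2* and *Awat1* were both highest in WT replicate 2, followed by WT replicate 3, and among KI libraries both were highest in replicate 4, followed by replicates 5 and 2.

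*Awat2* had normalized counts of 998, 1096, 1175, 734 and 820 in WT replicates 1 to 5, and of 811, 930, 608, 725 and 901 in KI replicates 1 to 5. These groups overlapped over most of their range. The log2 fold change was -0.28 (SE 0.15, 95% interval -0.61 to 0.06, edgeR adjusted p = 0.17). *Awat2* made up 28.5 ± 3.35% of the counts of both acyltransferases in WT and 34.4 ± 6.34% in KI skin (SD, n = 5 each), which overlapped, and fragments shared by both genes are uncertain in the same way as for the desaturases.

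*Soat1* (chr1:156424525-156474331, minus strand) encodes sterol O-acyltransferase 1, which makes sterol esters and is also known for this role in macrophages. Normalized counts were 2288, 3461, 3678, 2838 and 3104 in WT replicates 1 to 5 and 3063, 2334, 2733, 2597 and 2218 in KI replicates 1 to 5. WT replicate 1 was the second lowest of the 10 libraries and KI replicate 1 was above all other KI libraries, so the groups overlapped. The log2 fold change was -0.25 (SE 0.13, 95% interval -0.54 to 0.04, edgeR adjusted p = 0.16).

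*Mgst1* (chr6:138140316-138156755, plus strand) encodes microsomal glutathione S-transferase 1, a membrane enzyme that protects lipids from peroxidation. Normalized counts were 4618, 4537, 5690, 4152 and 4121 in WT replicates 1 to 5 and 4106, 3268, 4021, 3808 and 3264 in KI replicates 1 to 5. The groups were separated by a narrow gap, between WT replicate 5 and KI replicate 1. *Mgst1* was 1.25-fold lower in KI skin (4624 ± 636 against 3693 ± 405, SD, n = 5 each, log2 fold change -0.32, SE 0.11, 95% interval -0.56 to -0.09, edgeR adjusted p = 0.037). Its edgeR adjusted p rose past the threshold without WT replicate 1, 2 or 3 or KI replicate 2, 4 or 5, to at most 0.088, with log2 fold changes of -0.37 to -0.24 over all libraries left out in turn. *Scd1* and *Far2* were then the only calls left without WT replicate 1, 2 or 3 or KI replicate 2.

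*Mc5r* (chr18:68337596-68342446, plus strand) encodes the melanocortin 5 receptor, through which melanocortin peptides promote sebum production. Its normalized counts were 169, 253, 215, 280 and 300.2 in WT replicates 1 to 5 and 286, 275, 304, 315 and 235 in KI replicates 1 to 5. The groups overlapped, and WT replicate 1 was the lowest of all libraries. The log2 fold change was 0.22 (SE 0.15, 95% interval -0.12 to 0.56, edgeR adjusted p = 0.28). At 176 to 381 counts per library *Mc5r* had the fewest counts of the 10 genes.

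**Figure D3:**
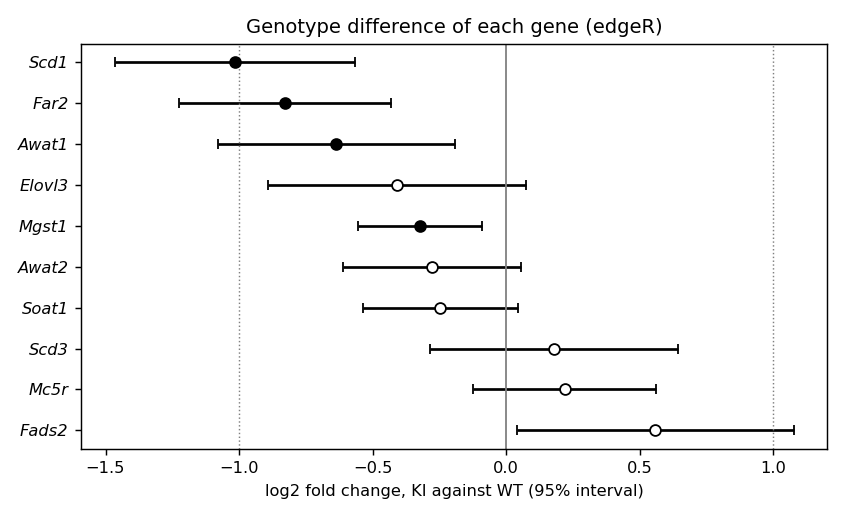
log2 fold change of each gene, KI against WT, with its 95% interval from edgeR. Filled points passed an adjusted p of 0.05 and dotted lines mark a fold of 2. The intervals run from -1.46 to -0.56 for *Scd1*, at the low end, and from 0.04 to 1.08 for *Fads2*, at the high end.

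Per kb of exon, as the deposited gene lengths give it, the level of *Scd1* came to 19519 normalized counts in WT skin against 9664 in KI skin, followed by *Mgst1* at 4903 and 3917. *Elovl3* (1775 and 1338), *Awat1* (1743 and 1124) and *Far2* (1694 and 955) formed a middle group whose WT levels differed by less than their SDs of 586, 358 and 314. *Scd3* (878 and 993), *Soat1* (642 and 541) and *Fads2* (618 and 911) came next by their WT levels, although *Scd3* was above *Far2* in KI skin by less than their SDs, and *Awat2* (454 and 374) and *Mc5r* (209 and 243) the lowest. Deposited lengths were 1508 bases for *Fads2*, 1162 for *Mc5r* and 2125 for *Awat2*. The transcripts used for their 3′-UTRs had 3150, 3904 and 1619 bases, so the order of these genes depends on the lengths used. *Scd1* alone made up 78.7 ± 3.69% of the counts of the 10 genes in WT and 70.4 ± 2.56% in KI skin (SD, n = 5 each). The 10 genes held 0.455 ± 0.124% of all counts in WT and 0.242 ± 0.0301% in KI skin. Without *Scd1* their summed normalized count was 24406 ± 3067 in WT and 19505 ± 1834 in KI skin, 1.25-fold lower.

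Replicates of a genotype did not rank alike across the 10 genes. In WT skin replicate 3 was highest for 5 genes and replicate 2 for 3, and replicate 1 was lowest for 5. In KI skin replicate 4 was highest for 4 genes, and replicate 1 was lowest for 4 (*Scd3*, *Elovl3*, *Awat1*, *Fads2*) and highest for 2 (*Mgst1*, *Soat1*). KI replicate 1, the only KI library with no more than 1 Y-linked count, lay below all WT libraries for 5 genes (*Scd1*, *Elovl3*, *Awat1*, *Mgst1*, *Far2*) and inside the WT range for the other 5. With a term for the Y-linked mark in the fit of all 10 libraries, chosen after seeing the data, the genotype difference rests on this 1 library against WT. The log2 fold changes were then -0.89 for *Scd1* (SE 0.39, 95% interval -1.77 to -0.020), -1.05 for *Far2* (SE 0.34, -1.81 to -0.29), -1.14 for *Awat1* (SE 0.34, -1.91 to -0.37) and -0.17 for *Mgst1* (SE 0.18, -0.58 to 0.24). No gene in the whole table passed an edgeR adjusted p of 0.05 in that fit, in which 3382 genes had an unadjusted p under 0.05, among them 3 of the 10.

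Markers of other cell types moved with genotype beside these genes. Of 10 adipocyte markers 8 fell (median log2 fold change -1.30), and their summed normalized count was 77183 to 206463 in WT and 45602 to 68401 in KI skin, with WT replicate 3 highest, as it was for *Scd1*. Of 10 macrophage markers 9 fell (median -1.36), with sums of 24407 to 47540 in WT and 10502 to 16201 in KI skin. Of 8 skeletal muscle markers 7 fell (median -1.51), of 6 basal keratinocyte markers 2 fell (median -0.21), and of 10 hair shaft markers 2 rose while all 10 had groups that did not overlap (median 2.29). The most abundant of the adipocyte list were *Car3* (-1.64) and *Cfd* (-1.11), and the third, *Fabp4*, had a log2 fold change of -0.28 (edgeR adjusted p = 0.23). Of 3 brown adipocyte markers, *Dio2* fell (-0.82), *Zic1* had 0.12 (edgeR adjusted p = 0.80), and *Ucp1*, which defines that cell type, had 19 counts over all 10 libraries and was not tested. The part of these cell types in the lower *Scd1*, *Far2*, *Awat1* and *Mgst1* was not tested.

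**Figure D4:**
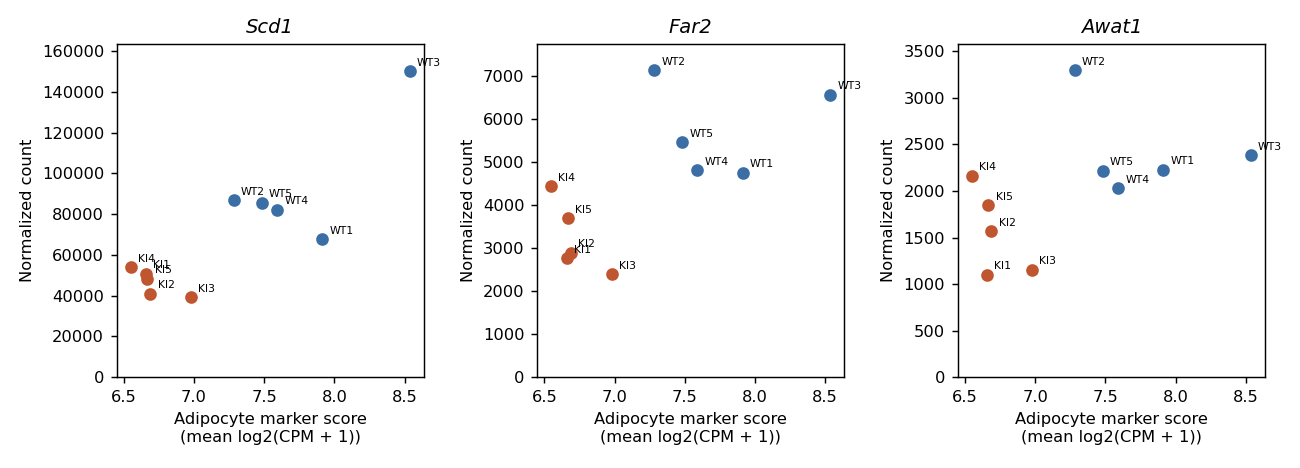
Normalized count of *Scd1*, *Far2* and *Awat1* (vertical axes, from 0) against the adipocyte marker score, the mean log2(CPM + 1) of 10 markers, in each library. WT scores lie between 7.28 and 8.54 and KI scores between 6.55 and 6.98, and WT replicate 3 has the highest score and the highest *Scd1*.

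Other markers of the sebaceous gland and its duct were lower in part. Of 9 such genes 6 fell and 0 rose (median log2 fold change -0.57). *Pparg*, the receptor that drives sebocyte and adipocyte differentiation, fell by 0.94 on the log2 scale (edgeR adjusted p = 0.0040), the defensin *Defb6* fell by 0.57 (0.0094) and the droplet protein *Cidea* fell by 0.69 (0.0109). *Apoc1* had -0.13 (0.26), *Dgat2l6* -0.18 (0.61) and *Krt7* -0.088 (0.61), and none of these passed. *Krt79*, a keratin of the duct, chosen after its values were seen, fell by 0.90 (0.0145). *Pparg* and *Cidea* are expressed in adipocytes too. The lists below are not fully separate from this one. *Pparg* is also among the regulators of sebocytes, and *Cidea*, *Plin2* and *Dgat2l6* are also among the neutral lipid genes.

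Enzymes of the neighboring steps were described by lists that exclude the 10 genes. Of 13 other desaturase and elongase genes tested, 4 fell and 2 rose (median log2 fold change -0.25). *Hsd17b12*, the ketoreductase of the elongation cycle, fell by 0.55 on the log2 scale (edgeR adjusted p = 0.0053), and *Elovl4*, an elongase of very long chains in the epidermal barrier, fell by 0.74 (0.0173). *Fads6*, a desaturase family member, rose by 0.73 (0.0126), and *Elovl1* had -0.25 (0.077). The paralog *Scd2*, chosen after its values were seen, rose from 12598 to 17597 normalized counts (log2 fold change 0.48, edgeR adjusted p = 0.039), in the opposite direction to *Scd1*.

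Of 15 other genes of neutral lipid synthesis and lipid droplets, 10 fell and 0 rose (median log2 fold change -0.69). These included *Gpam* and *Agpat2*, acyltransferases of the first steps of glycerolipid synthesis, which fell by 0.72 and 0.77 (edgeR adjusted p = 0.0040 and 0.0059), and the phosphatidate phosphatase *Lpin1*, which fell by 1.19 (0.0066). *Far1*, the paralog of *Far2* that acts in many cell types, had a log2 fold change of -0.17 (edgeR adjusted p = 0.25). Of 16 genes of fatty acid synthesis and its control, 6 fell and 2 rose (median -0.40), among them the acyl-CoA synthetase *Acsl1* (-1.15), the lipogenic factor *Thrsp* (-2.16) and the carbohydrate-responsive factor *Mlxipl* (-1.37), with edgeR adjusted p of 0.0040, 0.0082 and 0.0085. *Acly*, which supplies cytosolic acetyl-CoA, had -0.34 (0.057). Among WT libraries *Gpam*, *Agpat2*, *Lpin1*, *Acsl1*, *Thrsp* and *Mlxipl* were each highest in replicate 3 and lowest in replicate 2. These replicates also had the highest and lowest WT adipocyte marker scores (8.54 and 7.28). The part of adipocytes in the lower counts of these genes was not tested.

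Of 13 regulators of sebocytes tested, 4 fell and 3 rose (median log2 fold change -0.17), beside 19.1% lower and 15.3% higher over all genes. Beside *Pparg*, the liver X receptor *Nr1h3* fell by 1.26 (edgeR adjusted p = 0.0040). Like the adipocyte marker score, *Nr1h3* was highest among WT libraries in replicate 3 (565) and lowest in replicate 2 (290). The part of adipocytes was not tested. *Lrig1*, a marker of upper follicle and gland stem cells, had -0.17 (0.43). The 3 that rose, named after their values were seen, were *Prdm1* by 0.61 (0.026), *Srd5a1* by 0.45 (0.022) and *Foxo1* by 0.24 (0.029). Around *Mc5r*, 8 other genes of the melanocortin system were in the table and 4 passed the filter. *Mrap*, an accessory protein of the corticotropin receptor, fell by 1.66 (0.0047) and that receptor, *Mc2r*, by 1.63 (0.0079), *Mc1r*, the receptor of melanocytes, rose by 1.49 (0.0187), and *Agrp* had -0.15 (0.66). *Mrap* and *Mc2r* are known in mouse adipocytes, and *Mc2r* had only 14.7 to 118 normalized counts.

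*Mgst1* belongs to the MAPEG family of membrane enzymes. Of the other 5 members 2 fell (median log2 fold change -0.48), *Ltc4s* by 1.09 (edgeR adjusted p = 0.0053) and *Alox5ap* by 1.25 (0.0056), both of leukotriene synthesis and known in leukocytes. *Mgst3* had 0.31 (0.088).

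**Figure D5:**
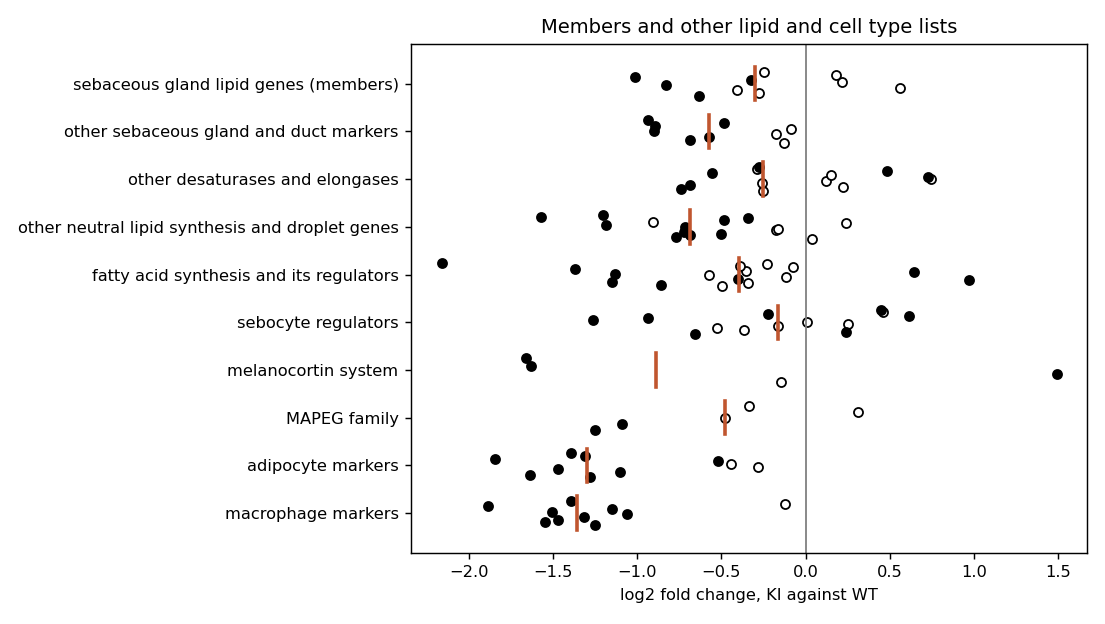
log2 fold change (KI against WT) of each gene tested in the 10 sebaceous gland lipid genes and in 9 other lists. Filled points passed an edgeR adjusted p of 0.05 and vertical strokes are list medians, which are -0.30 for the 10 genes, -0.69 for other neutral lipid genes, -1.30 for adipocyte and -1.36 for macrophage markers.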

How the data were processed

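RNA was extracted from full-thickness skin and sequenced in pairs of reads. The authors removed reads of mean quality under 20, aligned the rest to mm10 with STAR 2.5.2b, counted fragments per gene with featureCounts (Subread 1.5.0-p1) and deposited raw counts without normalization, per the study's methods and the submitters' processing notes, which also name DESeq2. Strand and multimapping settings are not given in the sources used here. A further 2 rows without a symbol, with 7.38e-05% of counts, were left out.

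Here edgeR 4.0.16 (R 4.3.3) scaled them by TMM, applied filterByExpr and fitted the robust quasi-likelihood model with genotype as its only term over all 10 libraries, testing 15543 genes. At a depth of 19595035 to 36419573 counts, each of the 10 genes had at least 176 counts per library. SE is the log2 fold change divided by the root of F. Single values were also compared by exact two-sided permutation tests. Alternatives were DESeq2 1.42.0, voom in limma 3.58.1, DESeq2's size factors, upper-quartile scaling, 2 other filters on low counts, non-robust dispersions, a replicate block, each library left out in turn, WT replicates 1 and 3 left out together, and WT against KI replicate 1 alone. A term for libraries with Y-linked counts was added after seeing the data. The code was tested on simulated counts.

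The 10 genes and all lists were chosen with earlier results of these data known. Genes named from the lipid lists are up to 3 called genes of smallest adjusted p and the most abundant gene not called, and from the marker lists the 3 with most counts, and 1 gene so named is not reported here. Promoters are from RefSeq on GRCm38.p6, and 3′-UTRs from GENCODE vM21 on GRCm38, using the transcript with the longest coding sequence per gene.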

Additional observations from a re-analysis of the deposited data

Results flagged for a closer look

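In each genotype and for each of the 10 genes, the highest and lowest library were compared with the nearest other library of that genotype by Dixon's criterion. Of 20 groups of 5 libraries, 2 held a library whose gap to the nearest other, as a share of the group's range, was above the critical value of 0.71. Chance gives about 1. For *Scd1*, WT replicate 3 had a normalized count of 150081 against 67574 to 86798 in the other WT libraries, a gap of 0.767 of the range. For *Awat1*, WT replicate 2 had 3298 against 2031 to 2384, a gap of 0.721. WT replicate 3 was also the library with the highest adipocyte marker score and the lowest hair shaft score, and WT replicate 2 was the WT library with the lowest adipocyte marker score. Their part in these values was not tested.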

How the results depend on the processing

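Of the 10 genes, 4 were lower in the main analysis and 2 to 4 with each library left out in turn, and 0 with a term for the Y-linked mark or in the 5 WT libraries against KI replicate 1. Both of these rest on a single KI library, which in the second is assumed to vary like the WT libraries, and both call 0 genes of the table (3382 and 2572 at an unadjusted p under 0.05 in edgeR), so they bear on the direction and size of a difference and not on whether a call holds. The count of higher genes was 0, and 1 with DESeq2. The count of genes lower past both thresholds was 1 (*Scd1*). It was 0 to 1 with libraries left out, and 0 with limma-voom, with the replicate block, without WT replicates 1 and 3, with the Y-linked term and against KI replicate 1. *Scd3*, which was not called, changed sign from 0.18 to -0.28 (log2) with the Y-linked term (95% interval -1.07 to 0.50) and likewise against KI replicate 1.

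Over all genes tested 19.1% were called lower and 15.3% higher. Genes tested were 13 desaturases and elongases, 15 neutral lipid, 16 fatty acid synthesis, 13 sebocyte regulator, 4 melanocortin, 5 MAPEG and 9 other sebaceous genes. *Pparg*, *Cidea*, *Plin2* and *Dgat2l6* are shared between lists. Called genes of the lipid, sebocyte regulator, melanocortin, MAPEG and other sebaceous lists numbered 31 lower and 8 higher. The higher ones became 4 with the replicate block, 3 without WT replicates 1 and 3, 0 against KI replicate 1, and 5 to 8 with libraries left out (5 without KI replicate 3). Over all genes 2962 were lower, 1851 with the block and 1424 without WT replicates 1 and 3, and 2373 were higher, 889 with the block, 1080 without WT replicates 1 and 3 and 1267 to 2362 with libraries left out (1337 without WT replicate 1, 1315 without KI replicate 2, 1267 without KI replicate 3). Past both thresholds 1032 were lower, 331 without WT replicates 1 and 3 and 612 to 1201 with libraries left out (612 without WT replicate 3). With the Y-linked term or against KI replicate 1 these counts were 0. For the other settings the cause was not tested.

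Without WT replicates 1 and 3 the edgeR adjusted p of *Awat1* was 0.096 and of *Mgst1* 0.14. The replicate numbers did not pair the samples. The correlation of same-numbered libraries' deviations ran from -0.19 to 0.085, with 0 of 5 above 0.1 and 0 WT libraries closest to their own number. With the block the adjusted p of *Awat1* was 0.057.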

Other observations

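The 5 genes, in none of the lists, whose variation among libraries was most like that of *Awat1*, *Awat2*, *Mc5r*, *Elovl3* and *Scd3* together were *Hacd2*, *Rassf3*, *2700062C07Rik*, *Acox2* and *Dhcr7*. The measure was Pearson's r over 10 libraries between the deviations from the genotype mean of log2 CPM, and it was 0.93, 0.89, 0.89, 0.87 and 0.86. They were the highest of 13568 genes, so high values were fixed by the choice, and the libraries share depth and composition. *Hacd2* encodes a dehydratase of fatty acid elongation, *Acox2* a peroxisomal oxidase of branched acyl chains and *Dhcr7* the last enzyme of cholesterol synthesis. Between genotypes, *Acox2* fell by 0.57 on the log2 scale (edgeR adjusted p = 0.038) and *Rassf3* by 0.25 (0.023), while *Hacd2* (-0.17), *2700062C07Rik* (0.085) and *Dhcr7* (-0.23) did not pass. The 5 sebaceous genes varied apart from each other, with r between pairs of -0.61 to 0.65 and 5 of 10 pairs positive.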
